A study of Mus musculus with 9 samples.

Results

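Hepatic stellate cells and the myofibroblasts they can become were followed in fatty mouse liver through 10 marker genes, chosen by name: Acta2, Tagln, Des, Pdgfra, Pdgfrb, Tgfb1, Hgf, Reln, Ecm1 and Lox. All 10 were among the 23337 genes of the count table, and all 10 passed the filter on low counts, as did 13141 genes in all. Whole liver of C57BL/6 mice was profiled by stranded poly(A) RNA sequencing. Every mouse had eaten a high-fat diet for 16 weeks, begun at 6 to 8 weeks of age, and no group on another diet was analysed here. The 3 groups of 3 mice were a whole-body knockout of protease-activated receptor 2 (labelled KO), a hepatocyte-specific knockout (PAR2dHep, here dHep) and floxed PAR2fl/fl mice (WT), which carry the loxP-flanked allele. The Cre line, its promoter, the deleted part of the gene and the sex of the mice are not given in the sources used here. The labels give each library its own number but no cage, litter or extraction day, so p-values measure the spread between these samples.

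Stellate cells lie between hepatocytes and the sinusoidal endothelium, store vitamin A, and in rodents carry the intermediate filament protein desmin. In an injured liver they can turn into contractile, matrix-forming myofibroblasts that gain smooth muscle actin and respond to platelet-derived growth factor and to transforming growth factor beta (TGF-beta). They are also a source of secreted signals in liver, among them hepatocyte growth factor and reelin. In whole liver RNA, fewer cells of a type and less RNA per cell cannot be told apart.

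Libraries held 18683660 to 30509242 reads assigned to genes. The targeted gene F2rl1, which encodes the receptor, had 71, 103 and 76 reads in the libraries labelled KO, 2, 8 and 0 reads in dHep, and 17, 27 and 28 reads in WT. The libraries labelled KO thus held more F2rl1 reads than WT, not fewer. Counts over the whole gene do not show which part of it was read, and whether the labels are right was not tested. Every direction drawn from the libraries labelled KO below is that of libraries so labelled. The libraries read as liver: 8 hepatocyte genes, Alb among them, summed to between 103960 and 160150 CPM (reads of a gene per 1000000 assigned reads) in every library. Some livers also carried transcripts of other tissues. The summed level of 18 exocrine pancreas genes was 1907 CPM in dHep replicate 2 and 503 CPM in WT replicate 1, against 0.371 to 7.33 CPM in the other 7 libraries. KO replicate 1 had 39.3 CPM of the intestinal gene Vil1, against 0.210 to 1.28 CPM in the other 8 libraries. All levels are given in CPM, with library sizes scaled by the trimmed mean of M values (TMM), unless a length-scaled unit is named.

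Promoter sequences were available for 7 of the 10 genes, and 4 upstream stretches are shown: Acta2 and Pdgfra as the actin and receptor markers, Hgf as the gene called between both knockouts, and Ecm1 as the most abundant marker. Each line gives the 150 bases before a RefSeq transcription start (build GRCm38.p6), read 5′ to 3′ on the gene's own strand, at chr19:34255374-34255523 (Acta2, minus strand), chr5:75152101-75152250 (Pdgfra, plus strand), chr5:16553345-16553494 (the first of the Hgf starts, plus strand) and chr3:95739570-95739719 (Ecm1, minus strand). Capitals mark the motifs searched on both strands.
Acta2: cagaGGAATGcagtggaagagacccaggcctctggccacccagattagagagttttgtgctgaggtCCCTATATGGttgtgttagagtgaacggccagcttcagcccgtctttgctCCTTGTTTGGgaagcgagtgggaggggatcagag
Pdgfra: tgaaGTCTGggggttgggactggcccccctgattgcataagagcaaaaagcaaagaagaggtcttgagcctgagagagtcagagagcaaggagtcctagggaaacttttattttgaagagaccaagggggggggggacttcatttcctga
Hgf: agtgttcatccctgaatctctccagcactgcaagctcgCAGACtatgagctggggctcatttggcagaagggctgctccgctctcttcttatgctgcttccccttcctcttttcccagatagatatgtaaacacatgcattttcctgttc
Ecm1: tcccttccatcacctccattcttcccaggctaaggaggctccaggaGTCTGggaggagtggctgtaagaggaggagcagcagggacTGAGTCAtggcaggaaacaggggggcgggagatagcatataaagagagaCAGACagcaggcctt

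The CArG box is the site bound by serum response factor, the regulator of muscle actin genes. No window of the 7 genes held the strict CArG box, which 1.63% of all 32817 promoter windows of this length hold. With 1 C or G allowed in its A/T core, a choice made after the sequence was seen, the Acta2 window held 2 copies, CCCTATATGG from base -84 to -75 and CCTTGTTTGG from base -34 to -25, and 12.2% of all windows held such a box. GGAATG, the TEAD motif, lay at bases -146 to -141 of Acta2 and in 14.7% of all windows. TGAGTCA, the AP-1 motif, lay at bases -64 to -58 of Ecm1 and in 5.2% of all windows. CAGAC, a motif bound by SMAD proteins that reads GTCTG on the other strand, lay in 49.6% of all windows. These matches describe the letters of the windows and are not binding data.

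Levels can be set side by side between genes only after division by gene length, so RPKM, which is CPM divided by the deposited gene length in kilobases, was computed. In WT livers the order by RPKM was Ecm1 (45.2 ± 0.793), Tagln (10.97 ± 1.598), Hgf (7.54 ± 0.146), Reln (6.84 ± 0.329), Acta2 (5.26 ± 0.883), Pdgfrb (2.95 ± 0.323), Tgfb1 (2.79 ± 0.274), Des (1.88 ± 0.525), Pdgfra (1.65 ± 0.0245) and Lox (0.370 ± 0.0422; SD, n = 3 each). The libraries of Pdgfrb and Tgfb1 overlapped, as did those of Des and Pdgfra, so neither neighbouring pair differed beyond its spread. Ecm1, a secreted matrix protein that is also made by hepatocytes in mouse liver, was the highest and Lox the lowest of the 10 in each group. Hgf ranked 6 in the libraries labelled KO at 2.06 ± 0.699 RPKM, 4 in dHep at 5.17 ± 1.59 RPKM and 3 in WT.

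**Figure D1:**
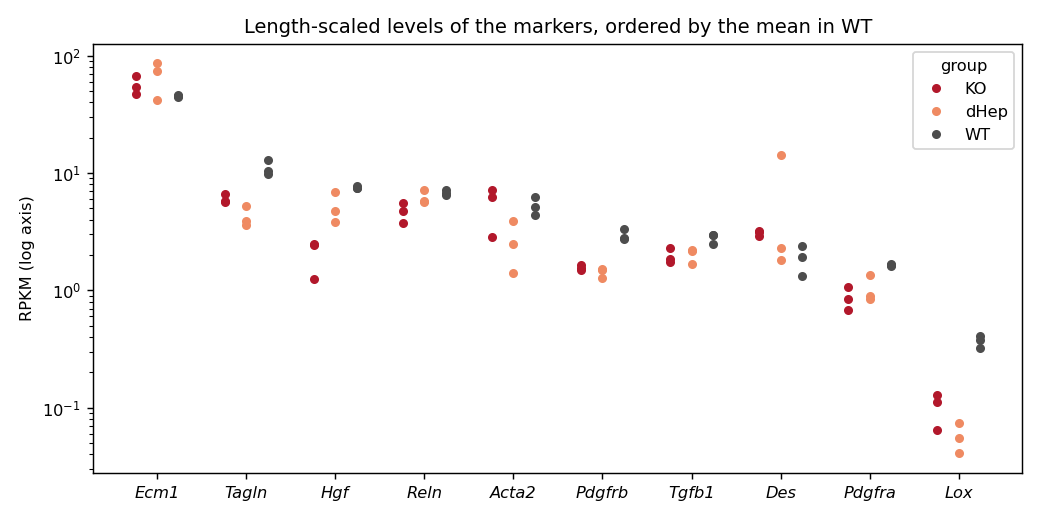
Length-scaled level of each marker in each library (RPKM, log axis), with the genes ordered by their mean in WT and 1 point a library for KO, dHep and WT. Ecm1 lay highest and Lox lowest in all 3 groups, and the point of Des at 14.2 RPKM is dHep replicate 2.

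With the receptor gene deleted in hepatocytes, 4 of the 10 markers fell relative to WT and 0 rose. The genes that fell were Tagln, Pdgfra, Pdgfrb and Lox, which encode an actin-binding protein of contractile cells, both platelet-derived growth factor receptors and a collagen cross-linking enzyme. Among all 13141 genes tested, 24.3% were called in the same comparison, where 11.9% fell and 12.4% rose. The median log2 fold change of the 10 markers was -0.61, against 0.02 over all genes. In 7 of the 10, all dHep libraries lay below all WT libraries, a pattern that 22.6% of all genes showed. At an unadjusted p under 0.05, 2 markers (Des and Ecm1) were higher in edgeR. DESeq2 called 0 as higher, with Ecm1 at an adjusted p of 0.0507. It gave Des no adjusted p, so Des could not be called there.

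In the libraries labelled KO, 7 of the 10 markers fell relative to WT and 0 rose. Tagln, Pdgfra, Pdgfrb and Lox were again among them, and Hgf, Reln and Tgfb1, the secreted signals of the set, were the others. Among all genes tested, 43.0% were called (22.1% fell and 20.9% rose), and 33.8% had all KO-labelled libraries below all WT libraries, as 7 of the 10 markers did. The median log2 fold change of the markers was -0.70, against -0.01 over all genes. At an unadjusted p under 0.05, 0 markers were higher in edgeR. DESeq2 also called 0 as higher, again without an adjusted p for Des. Both comparisons use the same WT livers, so they are given side by side and not as separate evidence.

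Between the knockouts, Hgf was the 1 marker of the 10 that fell in the libraries labelled KO relative to dHep, and 0 rose. Of all genes tested, 9.62% were called in this comparison (5.39% fell and 4.23% rose). At an unadjusted p under 0.05, 2 markers (Acta2 and Tagln) were higher in edgeR, and DESeq2 called 1, Acta2 (adjusted p = 0.0422). The median log2 fold change was -0.14 for the markers and -0.02 for all genes. All libraries labelled KO lay below all dHep libraries for Hgf and Reln and above them for Tagln, and 26.5% of all genes did not overlap in one direction or the other.

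**Figure D2:**
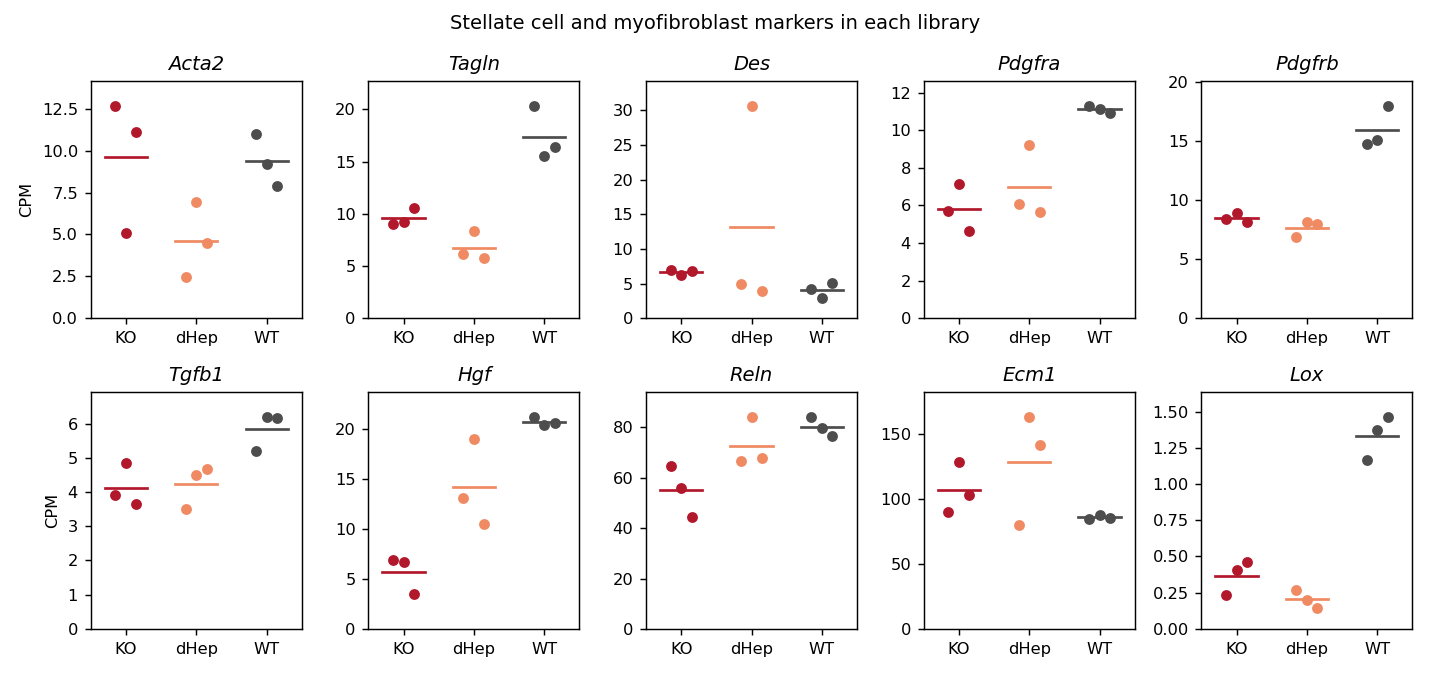
Level of each of the 10 markers in each library (CPM, each axis from 0), with KO, dHep and WT from left to right, points for libraries and a bar for the group mean. Tagln, Pdgfra, Pdgfrb, Tgfb1, Hgf and Lox lay lower in all KO-labelled and dHep libraries than in any WT library.

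**Figure D3:**
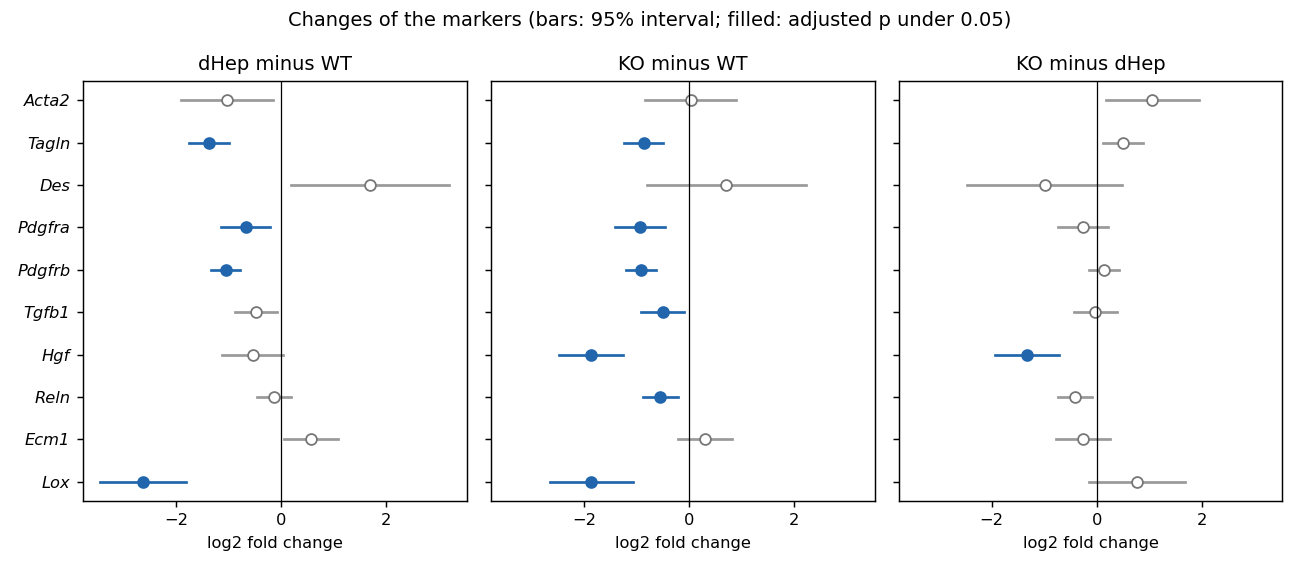
Log2 fold change of each marker with its 95% interval in 3 panels (dHep minus WT, then both contrasts of KO), where filled points passed an adjusted p of 0.05. Of the 10 markers, 4 were filled in dHep minus WT, 7 in KO minus WT and 1, Hgf, in KO minus dHep, all of them below 0.

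Among the cytoskeletal markers, Tagln fell in both comparisons with WT. Tagln encodes transgelin, also called SM22-alpha, which binds actin filaments in smooth muscle and myofibroblasts. It had 9.02, 9.18 and 10.6 CPM in the libraries labelled KO, 6.18, 8.35 and 5.74 CPM in dHep, and 20.3, 15.5 and 16.4 CPM in WT. The 3 groups did not overlap, with dHep lowest and WT highest. The fall was 2.57-fold in dHep (log2 fold change -1.36 ± 0.17 SE, adjusted p = 0.00109) and 1.82-fold in the libraries labelled KO (-0.86 ± 0.17, adjusted p = 0.00354). Between the libraries labelled KO and dHep the log2 difference was 0.50 ± 0.17 with an adjusted p of 0.0922, and without dHep replicate 2 it passed the test at 0.68, with an adjusted p of 0.0376, as it did with WT replicate 1 also omitted (0.0409).

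Acta2, which encodes smooth muscle alpha-actin and is the usual marker of the myofibroblast state, passed the test in no comparison. It had 12.6, 5.11 and 11.1 CPM in the libraries labelled KO, 2.49, 6.91 and 4.46 CPM in dHep, and 11.01, 9.19 and 7.88 CPM in WT. The KO-labelled libraries spanned the WT range, whereas all dHep libraries lay below WT. The log2 fold change was -1.03 ± 0.39 in dHep relative to WT (adjusted p = 0.0866) and 0.04 ± 0.38 in the libraries labelled KO (95% interval -0.83 to 0.90, adjusted p = 0.947). In the fit without dHep replicate 2, Acta2 fell in dHep by 1.45 on the log2 scale (adjusted p = 0.0260). With WT replicate 1 also omitted, Acta2 did not pass the test in dHep. DESeq2 with all libraries gave an adjusted p of 0.0336 for dHep relative to WT. Between the libraries labelled KO and dHep the log2 difference was 1.06 ± 0.40 (adjusted p = 0.118).

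Other smooth muscle genes were set beside Acta2. Myh11, the heavy chain of smooth muscle myosin, had 15.4, 3.48 and 9.64 CPM in the libraries labelled KO, 3.33, 8.11 and 4.66 CPM in dHep, and 7.48, 5.52 and 4.60 CPM in WT. Within each group, Acta2, Myh11 and the smooth muscle actin gene Actg2 put the 3 libraries in the same order, whereas Cnn1 in WT, Lmod1 in the libraries labelled KO and Myl9 in dHep gave another order. The summed level of Myh11, Cnn1, Actg2 and Lmod1, which like Myl9 were singled out after their values were seen, was highest in KO replicate 1 at 22.5 CPM, the library with Vil1, and lay between 4.08 and 15.2 CPM in the others. Without that library the log2 fold change of Acta2 between the libraries labelled KO and WT was -0.20. The part of smooth muscle RNA in the Acta2 values was not tested.

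Des, which encodes desmin, the intermediate filament of muscle and of rodent stellate cells, passed the test in no comparison and was far higher in 1 library than in the rest. It had 6.90, 6.19 and 6.75 CPM in the libraries labelled KO, 4.95, 30.6 and 3.92 CPM in dHep, and 4.17, 2.85 and 5.10 CPM in WT. All 3 KO-labelled libraries lay just above all WT libraries, and dHep replicate 2 lay far above the rest. The log2 fold change was 1.70 ± 0.67 in dHep relative to WT (adjusted p = 0.0954), or 0.14 without dHep replicate 2 (adjusted p = 0.682), and 0.71 ± 0.68 in the libraries labelled KO (adjusted p = 0.418). The summed level of 19 skeletal muscle genes was 1005 CPM in dHep replicate 2 with all 19 detected, against 82.2 and 22.1 CPM in the other dHep libraries, 22.8 to 103 CPM in the libraries labelled KO and 12.04 to 35.1 CPM in WT. Ckm, the muscle creatine kinase, had 69.6 CPM in that library and 0.0981 to 5.94 CPM in the other 8. Without dHep replicate 2 the Des difference between the libraries labelled KO and dHep was 0.57 on the log2 scale (adjusted p = 0.195), against -0.99 with it (adjusted p = 0.352). In that same fit Des passed the test between the libraries labelled KO and WT, at 0.71 with an adjusted p of 0.0252, as in a fit of only those groups (0.0201) but not with WT replicate 1 also omitted (0.0596). All 19 muscle genes were detected in KO replicates 2 and 3 and 13 of 19 in KO replicate 1. The part of muscle RNA in Des was not tested.

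**Figure D4:**
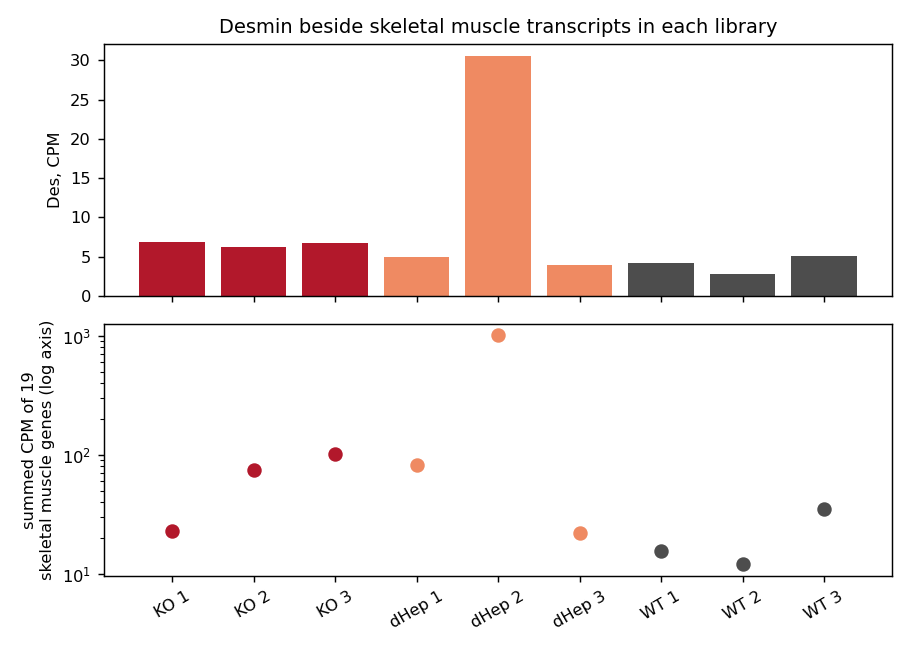
Des (upper panel, CPM, axis from 0) and the summed level of 19 skeletal muscle genes (lower panel, CPM, log axis) in each library, with KO, dHep and WT from left to right. Both measures were highest in dHep replicate 2, at 30.6 CPM of Des and 1005 CPM of the muscle genes.

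Both platelet-derived growth factor receptors fell in both comparisons with WT. Pdgfrb, the receptor that drives stellate cell proliferation and migration, had 8.45, 8.91 and 8.14 CPM in the libraries labelled KO, 6.87, 8.19 and 7.99 CPM in dHep, and 14.8, 15.2 and 18.0 CPM in WT. The KO-labelled and dHep libraries overlapped each other and lay far below WT. Pdgfrb fell 2.08-fold in dHep (log2 fold change -1.06 ± 0.13, adjusted p = 0.000887) and 1.88-fold in the libraries labelled KO (-0.91 ± 0.13, adjusted p = 0.000754). Their difference was 0.15 with a 95% interval of -0.14 to 0.43 on the log2 scale. Pdgfrb passed the test in both comparisons with WT under all 16 alternative settings.

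Pdgfra, the alpha receptor, which fibroblasts and quiescent stellate cells carry in mouse liver, had 5.73, 7.14 and 4.62 CPM in the libraries labelled KO, 6.06, 9.20 and 5.64 CPM in dHep, and 11.3, 11.2 and 10.9 CPM in WT. The WT livers were nearly level, and no knockout library reached them. Pdgfra fell 1.90-fold in the libraries labelled KO (log2 fold change -0.93 ± 0.21, adjusted p = 0.00737). In dHep it fell 1.596-fold (-0.67 ± 0.21, adjusted p = 0.0433), a call near the threshold. That call was lost, with adjusted p between 0.0531 and 0.121, in 8 of the 16 alternatives: with no low-count filter, with only dHep and WT in the fit, and without dHep replicate 1 or 3, KO replicate 1, or WT replicate 1, 2 or 3.

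Of the ligands of these receptors, Pdgfa, Pdgfb, Pdgfc and Pdgfd, together with the receptor-like gene Pdgfrl, 0 of 5 passed the test of edgeR in dHep, and 0 had an unadjusted p under 0.05 there or passed in DESeq2. In the libraries labelled KO 1 rose and 1 fell, where 20.9% of all genes tested rose and 22.1% fell. Pdgfa averaged 5.31 ± 0.336 CPM in the libraries labelled KO, 2.85 ± 0.708 CPM in dHep and 3.59 ± 0.418 CPM in WT, and rose relative to WT in the libraries labelled KO (log2 fold change 0.56 ± 0.20, adjusted p = 0.0487). Pdgfrl fell there by 1.73 on the log2 scale. Both of these calls were lost without KO replicate 1. DESeq2 with all libraries called 1 rise and 2 falls in the libraries labelled KO relative to WT. Relative to dHep, Pdgfa rose in the libraries labelled KO by 0.90 on the log2 scale (adjusted p = 0.0275). In that comparison 1 of the 5 genes rose without KO replicate 1, and 0 rose with dHep replicate 2 and WT replicate 1 both omitted.

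Of the secreted signals, Hgf was called between the knockouts. Hgf encodes the ligand of MET, the receptor through which hepatocytes are driven to grow. It had 6.86, 6.74 and 3.46 CPM in the libraries labelled KO, 13.1, 19.1 and 10.5 CPM in dHep, and 21.2, 20.5 and 20.6 CPM in WT. The 3 groups did not overlap. Hgf fell 3.63-fold in the libraries labelled KO relative to WT (log2 fold change -1.86 ± 0.27, adjusted p = 0.00095) and 2.49-fold relative to dHep (-1.32 ± 0.27, adjusted p = 0.0186). In dHep relative to WT the log2 fold change was -0.54 ± 0.26 (adjusted p = 0.156). Without dHep replicate 2, the highest dHep library, it passed the test at -0.80 (adjusted p = 0.0365). With WT replicate 1 also omitted, Hgf did not pass the test in dHep. The call between the knockouts was lost with only those 2 groups in the fit (adjusted p = 0.0672), without KO replicate 2 (0.0524), without KO replicate 3 (0.0514), and when dHep replicate 2 and WT replicate 1 were both omitted (0.0673).

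Around Hgf, 9 genes were examined that encode proteases able to activate the growth factor or its activators, their inhibitors Spint1 and Spint2, the receptor Met and its adaptor Gab1. Of these, 3 rose and 3 fell in the libraries labelled KO, and 2 rose and 2 fell in dHep. Among all genes tested, 20.9% rose and 22.1% fell in the libraries labelled KO, and 12.4% rose and 11.9% fell in dHep. Spint2 rose (adjusted p = 0.0176) and Gab1 fell (adjusted p = 0.0394) in the libraries labelled KO. Hgfac, a serum protease that activates the growth factor, averaged 208 ± 10.8 CPM in the libraries labelled KO, 192 ± 39.7 CPM in dHep and 119 ± 2.64 CPM in WT, and rose by 0.81 on the log2 scale in the libraries labelled KO and by 0.69 in dHep. Hpn, which encodes the hepatocyte surface protease hepsin, rose by 0.80 in the libraries labelled KO and by 0.75 in dHep, with adjusted p of 0.00286 and 0.00771. Plau, urokinase, averaged 1.15 ± 0.146 CPM in the libraries labelled KO, 2.03 ± 0.276 CPM in dHep and 5.65 ± 0.0587 CPM in WT. It fell by 2.29 on the log2 scale in the libraries labelled KO and by 1.48 in dHep. Plat, tissue plasminogen activator, fell by 1.87 in the libraries labelled KO and by 2.02 in dHep. Met itself averaged 84.6 ± 20.1 CPM in the libraries labelled KO, 139 ± 34.7 CPM in dHep and 120 ± 3.00 CPM in WT. It passed the test in neither comparison with WT. Relative to dHep, Met fell in the libraries labelled KO by 0.72 on the log2 scale (adjusted p = 0.0489). Of the 9 genes, Met, Plau and Gab1 were the 3 that fell in that comparison, where 5.39% of all genes fell. With dHep replicate 2 and WT replicate 1 both omitted, 0 of the 9 fell there.

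Reln, which encodes the secreted glycoprotein reelin, a stellate cell product in liver, fell in the libraries labelled KO. It had 64.8, 56.0 and 44.3 CPM in the libraries labelled KO, 66.5, 83.9 and 68.0 CPM in dHep, and 84.1, 79.7 and 76.4 CPM in WT. All KO-labelled libraries lay below every other library, while dHep and WT overlapped. The fall relative to WT was 1.45-fold (log2 fold change -0.54 ± 0.15, adjusted p = 0.0149), and the call was narrowly lost without KO replicate 3 (adjusted p = 0.0507) or WT replicate 1 (0.0508). In dHep the log2 fold change was -0.14 with a 95% interval of -0.46 to 0.19. Of the reelin receptor genes, Vldlr, which also takes up lipoproteins, fell in dHep by 1.44 on the log2 scale (adjusted p = 0.0167) and was at -0.60 in the libraries labelled KO (adjusted p = 0.181).

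Tgfb1, the main fibrogenic cytokine, fell in the libraries labelled KO and stayed near the threshold in both comparisons with WT. It had 3.90, 4.84 and 3.64 CPM in the libraries labelled KO, 3.51, 4.50 and 4.66 CPM in dHep, and 5.18, 6.19 and 6.17 CPM in WT. Both knockout groups lay below WT and overlapped each other. The fall in the libraries labelled KO was 1.42-fold (log2 fold change -0.50 ± 0.18, adjusted p = 0.0487), and the value in dHep was -0.47 ± 0.18 (adjusted p = 0.0843). The call in the libraries labelled KO was lost under 9 of the 16 alternatives, with adjusted p of up to 0.150. These were the other scaling, DESeq2, no low-count filter, the fits without KO replicate 1 or 3 or WT replicate 1, 2 or 3, and the fit without both WT replicate 1 and dHep replicate 2.

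Of 9 tested TGF-beta ligands, latency proteins and activators, 3 fell in the libraries labelled KO and 5 fell in dHep, where 22.1% and 11.9% of all genes tested fell. Thbs1, thrombospondin 1, which activates latent TGF-beta, averaged 2.19 ± 0.286 CPM in the libraries labelled KO, 2.31 ± 1.83 CPM in dHep and 8.74 ± 0.966 CPM in WT. It fell by 1.99 on the log2 scale in the libraries labelled KO (adjusted p = 0.0061) and by 1.92 in dHep (adjusted p = 0.0127). Itgav, the integrin alpha-v chain that also releases TGF-beta from its latent complex, fell by 0.43 in the libraries labelled KO and by 0.73 in dHep. Tgfb2, Ltbp1 and Ltbp2 were the others that fell in dHep, and Tgfb2 the other in the libraries labelled KO.

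Of 16 TGF-beta receptor and SMAD genes, 4 fell in the libraries labelled KO and 1 fell in dHep. The shares of all genes were again 22.1% and 11.9%. When dHep replicate 2 and WT replicate 1 were both omitted, 3 fell in the libraries labelled KO and 2 fell in dHep. Tgfbr2, the ligand-binding receptor, averaged 25.1 ± 3.17 CPM in the libraries labelled KO, 30.3 ± 10.7 CPM in dHep and 59.1 ± 3.04 CPM in WT. It fell by 1.24 in the libraries labelled KO (adjusted p = 0.00238) and by 0.97 in dHep (adjusted p = 0.0131). Tgfbr1, Acvrl1 and Smad2 were the others that fell in the libraries labelled KO, with Smad2 near the threshold (adjusted p = 0.0498). Of 9 tested target genes of the pathway, 4 fell in dHep, Tnc, Ltbp2 and Ctgf among them, and 3 fell in the libraries labelled KO, Tnc and Tgfbi among them. Tnc, the matrix protein tenascin C, averaged 1.01 ± 0.267 CPM in the libraries labelled KO, 0.856 ± 0.0621 CPM in dHep and 10.3 ± 1.49 CPM in WT. It fell by 3.34 on the log2 scale in the libraries labelled KO (adjusted p = 4.36e-05) and fell by 3.58 in dHep (adjusted p = 7.69e-05), more than any of the 10 markers.

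Lox, which encodes lysyl oxidase, had the largest fall of the 10 markers in dHep, and the fewest reads. It had 5, 9 and 8 reads in the libraries labelled KO, 9, 5 and 3 reads in dHep, and 31, 37 and 41 reads in WT. These were 0.235, 0.407 and 0.462 CPM in the libraries labelled KO, 0.270, 0.201 and 0.147 CPM in dHep, and 1.16, 1.37 and 1.46 CPM in WT. No knockout library came near WT. Lox fell 6.17-fold in dHep (log2 fold change -2.63 ± 0.36, adjusted p = 0.00174) and 3.62-fold in the libraries labelled KO (-1.85 ± 0.35, adjusted p = 0.003). Between the knockouts the log2 difference was 0.77 with a 95% interval of -0.14 to 1.68. At 3 to 9 reads a library, this comparison cannot tell a difference from none. The fit of only the libraries labelled KO and dHep gave no value for Lox. Of all genes tested, 22.1% fell in the libraries labelled KO and 11.9% fell in dHep. Of the 4 other lysyl oxidase genes, 1 fell in each comparison with WT. That gene was Loxl2, at 3.00 ± 0.841 CPM in the libraries labelled KO, 3.25 ± 0.521 CPM in dHep and 12.4 ± 2.60 CPM in WT, with log2 fold changes of -2.04 in the libraries labelled KO and -1.92 in dHep.

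Ecm1, which encodes extracellular matrix protein 1, a keeper of TGF-beta in its latent form in mouse liver, passed the test in no comparison. It had 90.0, 128 and 103 CPM in the libraries labelled KO, 80.2, 163 and 142 CPM in dHep, and 84.8, 87.6 and 85.3 CPM in WT. All KO-labelled libraries lay above WT, whereas dHep lay on both sides. The log2 fold change was 0.32 ± 0.23 in the libraries labelled KO (adjusted p = 0.284) and 0.58 ± 0.23 in dHep (adjusted p = 0.0968). Without dHep replicate 1, the lowest dHep library, the dHep value passed the test at 0.82 (adjusted p = 0.00565).

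The wider contractile programme was mixed. Of 19 tested contractile and smooth muscle genes, 6 fell and 2 rose in the libraries labelled KO, with a median log2 fold change of -0.02. Without KO replicate 1, 4 fell and 2 rose there. In dHep 5 fell, with a median of -0.24. Of all genes tested, 22.1% fell and 20.9% rose in the libraries labelled KO, and 11.9% fell in dHep. Flna, the actin cross-linker filamin A, fell by 1.29 in the libraries labelled KO and by 1.07 in dHep on the log2 scale. Csrp1, a cytoskeletal LIM protein, fell by 1.22 in the libraries labelled KO and by 0.83 in dHep. Vcl, vinculin, fell by 0.74 in dHep and was at -0.22 in the libraries labelled KO (adjusted p = 0.0723). Srf and its coactivator gene, listed as Mkl1, rose in the libraries labelled KO by 0.77 and 0.65 (adjusted p = 0.00358 and 0.00489) and were at 0.35 and 0.11 in dHep without passing the test.

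Of 19 other stellate cell markers tested, 9 fell in the libraries labelled KO, where 22.1% of all genes fell. Without KO replicate 1, 7 of them fell there. In dHep 3 fell, 2 rose and 14 were not called, where 11.9% of all genes fell and 12.4% rose. Whether these counts differ between the knockouts was not tested. Gene by gene, 3 of the 19 fell and 0 rose in the libraries labelled KO relative to dHep, where 5.39% of all genes fell. In that comparison 0 fell without KO replicate 1, and 0 fell with dHep replicate 2 and WT replicate 1 both omitted. Lrat, the enzyme that esterifies retinol for storage, averaged 16.4 ± 1.75 CPM in the libraries labelled KO, 39.9 ± 19.96 CPM in dHep and 46.6 ± 16.4 CPM in WT, and fell by 1.51 on the log2 scale in the libraries labelled KO (adjusted p = 0.00857). Colec10, a collectin that stellate cells secrete, averaged 25.9 ± 4.63 CPM in the libraries labelled KO, 55.7 ± 19.7 CPM in dHep and 66.1 ± 3.08 CPM in WT, and fell by 1.35 in the libraries labelled KO (adjusted p = 0.00218). Vim, Nes and Gucy1a3 fell in both comparisons, and Colec11, Gucy1b3 and Steap4 were among the others that fell in the libraries labelled KO. Angptl6 and Vipr1 rose in dHep, and neither call was kept when dHep replicate 2 and WT replicate 1 were both omitted.

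The transcription factor genes Hand2, Tcf21 and Lhx2, which mark stellate cells among liver cells, passed the test in no comparison with WT. Hand2 averaged 2.87 ± 0.820 CPM in the libraries labelled KO, 2.81 ± 0.322 CPM in dHep and 2.77 ± 0.656 CPM in WT. Tcf21 averaged 3.70 ± 1.03 CPM in the libraries labelled KO, 3.60 ± 0.417 CPM in dHep and 3.62 ± 0.310 CPM in WT. The 95% intervals of their log2 fold changes ran from -0.59 to 0.62 for Hand2 and from -0.52 to 0.50 for Tcf21 in dHep, and from -0.56 to 0.66 and from -0.48 to 0.54 in the libraries labelled KO. Smaller changes than these bounds cannot be told from none. Lrat, Colec10 and these factors were singled out after their values were seen.

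Markers of neighbouring cell types moved in the same samples. Of all genes tested, 22.1% fell and 20.9% rose in the libraries labelled KO, and 11.9% fell and 12.4% rose in dHep. Of 16 endothelial markers, 13 fell in the libraries labelled KO and 5 fell in dHep. Without KO replicate 1 in the fit, 10 fell in the libraries labelled KO and 3 in dHep. The summed level of all 16 was 274 to 410 CPM in the libraries labelled KO, 414 to 545 CPM in dHep and 564 to 630 CPM in WT. Of 12 macrophage and Kupffer cell markers, 10 fell in the libraries labelled KO and 7 fell in dHep. The 5 not called in dHep were Csf1r (log2 fold change -0.82), Lyz2 (-0.88), Clec4f (-0.09), Vsig4 (0.22) and Timd4 (1.03). The summed level of all 12 was 111 to 208 CPM in the libraries labelled KO, 261 to 466 CPM in dHep and 492 to 616 CPM in WT. The 20 other stellate cell markers summed to 304 to 385 CPM in the libraries labelled KO, 382 to 622 CPM in dHep and 579 to 624 CPM in WT. Of those sums, Steap4 alone averaged 154 CPM in the libraries labelled KO, 181 CPM in dHep and 266 CPM in WT. Of 14 portal fibroblast and mesothelial markers, 2 fell and 1 rose in the libraries labelled KO, and 3 fell in dHep; without both dHep replicate 2 and WT replicate 1, 4 fell in the libraries labelled KO, and without KO replicate 1, 1 fell. Of 8 hepatocyte markers, 3 rose in the libraries labelled KO, and 4 rose and 1 fell in dHep; without both of those libraries 5 rose in the libraries labelled KO. Of 5 tested cholangiocyte markers, 2 rose in the libraries labelled KO, or 1 without KO replicate 1. Of 4 tested adipocyte markers, 1 fell in the libraries labelled KO, where 1 also rose without KO replicate 1. In dHep 1 rose and 1 fell, and 0 rose without both dHep replicate 2 and WT replicate 1. Cidea was the 1 that fell in each comparison, and the cell source of its RNA was not tested. In the libraries labelled KO, Adipoq, Plin1 and Lep were at 1.47, 4.41 and 0.65 on the log2 scale and were not called. Of the 19 skeletal muscle markers, 1 rose in the libraries labelled KO and 8 rose in dHep. Without both dHep replicate 2 and WT replicate 1, 1 rose in dHep. The part of these cell types in the changes of the 10 markers was not tested. When dHep replicate 2 and WT replicate 1 were both omitted, 6 of the 10 markers fell in the libraries labelled KO. With all libraries 7 did, and the call lost was that of Tgfb1. In dHep 4 fell in that fit. Of all genes, 2621 fell in the libraries labelled KO and 1441 in dHep there.

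**Figure D5:**
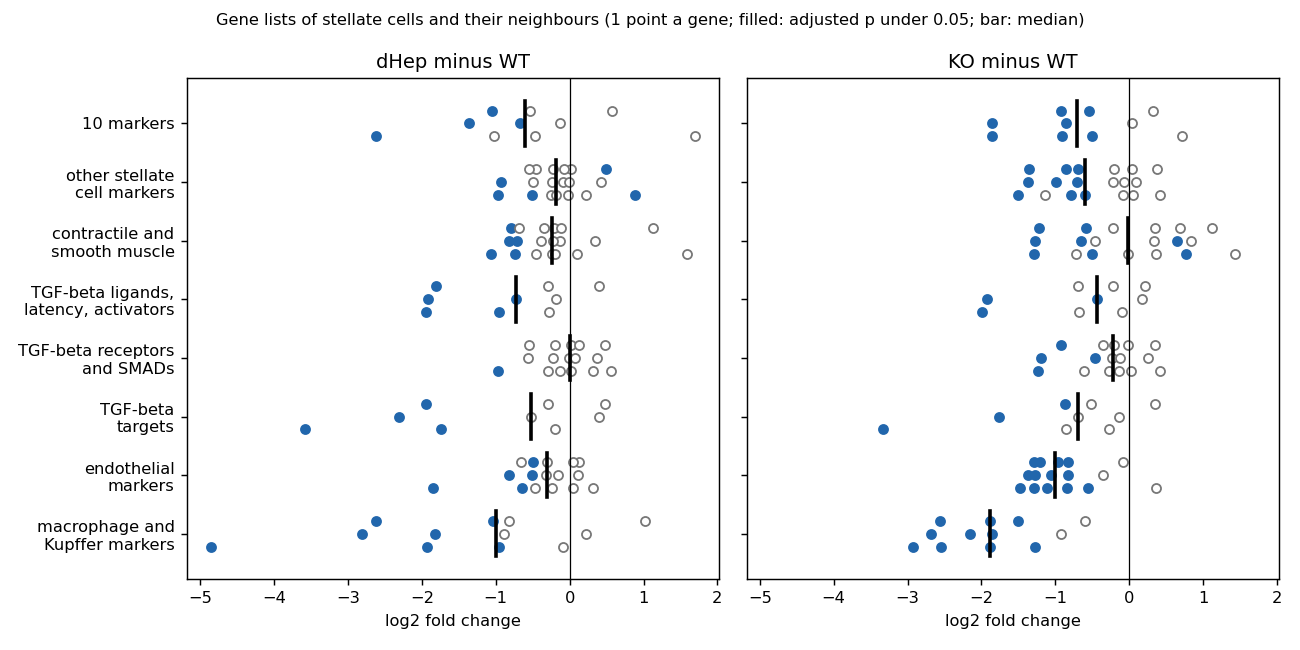
Log2 fold change of each tested gene of 8 lists in dHep minus WT and KO minus WT, with 1 point a gene, filled where the adjusted p was under 0.05, and a bar at each list's median. The medians of the 10 markers were -0.61 in dHep and -0.70 in KO, those of the endothelial markers -0.31 and -1.01, and those of the macrophage and Kupffer cell markers -0.99 and -1.88.

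The genes most like each called marker across the 9 libraries were found by the mean absolute difference of log2 CPM, centred on each gene's own mean, among 11824 genes that averaged 1 CPM or more. Nearest to Tagln were Plod2 (0.113), a collagen lysyl hydroxylase, Tnfrsf19 (0.143) and Mlec (0.148). Nearest to Pdgfrb were Nap1l1 (0.0936), the lipid droplet gene Hsd17b13 (0.109) and Pgd (0.110). Nearest to Pdgfra were Prcp (0.0949), Hspa4l (0.105) and Wls (0.105). Nearest to Lox were S100a11 (0.174) and the cell division and replication genes Aspm (0.221) and Mcm6 (0.239). Nearest to Hgf were Fam102b (0.160), Hecw2 (0.170) and Epsti1 (0.171), to Reln Vamp3 (0.0769), Skiv2l2 (0.0773) and Tbc1d5 (0.0819), and to Tgfb1 Dapk2 (0.0722), Ets2 (0.0767) and Rhoj (0.0817). Among the markers themselves the closest pair was Tagln and Pdgfrb at 0.188, followed by Pdgfra and Pdgfrb at 0.209.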

How the data were processed

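The authors deposited raw counts of reads per gene and library, made with featureCounts 1.6.2 at strand setting 2, per the file headers. A Length column, the gene length in bases, was also deposited. Per the submitters' processing notes, mm10 was the genome build and HISAT2 2.1.0, FastQC and DESeq2 were among the tools. PCR duplicates cannot be told apart in counts without molecular identifiers.

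Genes were kept by filterByExpr (minimum count 10, minimum total 15). The main test was the quasi-likelihood test in edgeR 4.0.16 (R 4.3.3), fitted once to the 9 libraries, with 1 coefficient for each group and TMM scaling. Each p was adjusted by the Benjamini-Hochberg method over all 13141 genes tested, with a threshold of 0.05, and SE is the size of the log2 fold change divided by the square root of F. For 3 libraries against 3, the smallest two-sided p of an exact permutation test is 0.1.

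Replicates of a group differed by more than sampling noise. The 10 members and the 18 other gene lists were chosen with earlier results of these data known. All members are named; of each pathway list, up to 2 called genes per direction with the smallest p and a mean of at least 1 CPM, and further genes named from the called sets or after their values were seen. Some called genes are not reported here. Promoter windows of 250 bases before to 50 after a start came from RefSeq. Alternatives were the other scaling, DESeq2 1.42.0, other filters, 2-group fits, a replicate block and libraries left out; counts over the gene lists without KO replicate 1, without both dHep replicate 2 and WT replicate 1, and by DESeq2 were added after seeing the data. The box with a C or G in its core was also chosen then.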

Additional observations from a re-analysis of the deposited data

How the results depend on the processing

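Across 16 alternative settings, Tagln, Pdgfrb and Lox in both comparisons with WT, and Hgf and Pdgfra in KO minus WT, kept their direction and passed the test in every one; the calls of Pdgfra in dHep, and of Tgfb1, Reln and Hgf, were lost under the settings named beside them. With 1 library left out in turn, the number of markers called was 5 to 8 in KO minus WT, 3 to 6 in dHep minus WT and 0 to 2 in KO minus dHep, and the number of all genes called was 3835 to 6547, 1359 to 4025 and 386 to 2809. In KO minus dHep, where 1 marker and 1264 genes were called, DESeq2 called 2 markers and 2068 genes, a fit of only those groups called 0 markers and 342 genes, and omitting both dHep replicate 2 and WT replicate 1 gave 495 genes. The cause of these shifts was not tested, except that smaller fits have fewer samples.

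Values that changed sign were small or rested on 1 library. With 1 library left out in turn, Acta2 in KO minus WT ran from -0.20 (without KO replicate 1) to 0.34, and was also -0.08 without KO replicate 3 or WT replicate 3. Des in KO minus dHep ran from -1.42 to 0.57, the value without dHep replicate 2, and was 0.57 also when WT replicate 1 was omitted as well. Tgfb1 in KO minus dHep ran from -0.16 to 0.053, was 0.023 without KO replicate 1, 0.024 without dHep replicate 2, 0.050 without dHep replicate 3, and 0.024 with both dHep replicate 2 and WT replicate 1 omitted. Des in dHep minus WT passed the test without dHep replicate 1 (adjusted p = 0.0481) or 3 (0.0394), and was 0.14 without dHep replicate 2 (0.682).

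With a replicate block, 4, 7 and 1 markers and 2781, 5292 and 954 genes were called in dHep minus WT, in KO minus WT and between the knockouts in turn, and no count of markers changed. Same-numbered libraries did not deviate together (Pearson r across genes from -0.27 to 0.03), so the numbers are not treated as pairs. Ordered by CPM in place of RPKM, Reln ranked 2 and Tagln 4 in WT. Depth limits Lox most, with 17 reads in all of dHep.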
